A study of Mus musculus with 6 samples.

Results

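The genes described here encode the enzymes that modify drugs and other foreign compounds: the cytochrome P450 families Cyp1 to Cyp4, the UDP-glucuronosyltransferases (Ugt1 and Ugt2) and the cytosolic sulfotransferases (Sult). They were taken by symbol, without use of their values, from the array features that the platform annotation assigns to exactly 1 gene, and 94 of the 19938 genes so named qualified. Each was read by 1 probe set, the group of short DNA probes that reports a gene. The 94 comprised 3 Cyp1, 45 Cyp2, 6 Cyp3, 16 Cyp4, 8 Ugt and 16 Sult genes, and 3 of them are annotated as pseudogenes. A further 11 probe sets carried several symbols with at least 1 from these families, among them the probe set of the Ugt1a cluster, so no Ugt1a gene was measured singly and all 8 Ugt genes belong to Ugt2.

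RNA of RW4 cells, a mouse embryonic stem cell line, was hybridised to 6 Affymetrix arrays. In 2 arrays the cells were untreated, in 2 they had received 1 µM 4-hydroxytamoxifen (4OHT), the ligand of the ERT2 induction system, and in 2 they had received 1 µM Shld1, the ligand of the FKBP induction system. All groups were grown on gelatin with 1000 U/mL of leukaemia inhibitory factor and 10% each of calf and fetal bovine serum. No source used here gives the length of treatment or states that the cells held a fusion protein of either system. The arrays of a group are called duplicates without mention of separate cultures, so the p-values below measure a spread that may be technical. Values are log2 signals as deposited, and their number, 2 a group, limits the precision.

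P450 enzymes insert oxygen into lipophilic compounds with electrons from NADPH, and UGT and SULT enzymes then attach glucuronic acid or sulfate, which makes the products easier to excrete. Liver and intestine are the best known sites of these pathways, and many of the genes are switched on there by ligand-activated receptors such as the aryl hydrocarbon receptor, the pregnane X receptor and PPARα. Tamoxifen itself is a substrate in humans: CYP2D6 and CYP3A4 form its active metabolites, and SULT1A1 and several UGTs conjugate 4OHT.

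The promoters of the 94 genes held few CpG dinucleotides, and fewer of them were rich in CpG than among genes below background in general. In the 250 bases before the transcription start listed by RefSeq (GRCm38.p6), found for 77 of the 94 genes, the median count was 2 CpG with a range of 0 to 16. Where a gene had several listed starts, as Sult2b1 did, only the first listed was used. The median was 11 over the 15563 genes of the array with a listed promoter, the families included, and 3 over the 5456 of these that were below the background level of 3.71. The median GC content was 45.6% for the families, 48.0% for the genes below background and 56.4% for all. At least 10 CpG were present in 5 of the 77 promoters (6.49%), in 21.4% of those of genes below background and in 54.7% of all. The letters TATAAA stood on the gene's strand in 18 of the 77 (23.4%), against 13.0% of those of genes below background and 7.25% of all. GCGTG, the core of the aryl hydrocarbon receptor element, stood on either strand in 13 (16.9%), against 19.8% and 36.0%. For the 66 promoters of family genes below background, listed for 84.6% of such genes, the median was 1 CpG. At least 10 CpG were present in 4.55% of these 66, TATAAA in 27.3% and GCGTG in 18.2%. Matches to TATAAA or GCGTG describe the letters and are no evidence of binding. Because listed promoters cover 68.8% of the 16 genes of the families above background, 75.5% of all genes below it and 78.1% of all genes, promoters of expressed and silent genes were not compared as sets, and the shares over the array are limited by that coverage. 4 promoters are printed 5′ to 3′ on the gene's strand with each CpG in capitals. They contrast Cyp4f13, read above background with 3 CpG (chr17:32947362-32947611, minus strand), and Cyp2s1, read above background with 15 (chr7:25816526-25816775, minus strand), with Cyp1b1, read below it with 12 (chr17:79715062-79715311, minus strand), and Cyp3a11, the typical liver P450, read below it with 2 (chr5:145879855-145880104, minus strand).
Cyp4f13: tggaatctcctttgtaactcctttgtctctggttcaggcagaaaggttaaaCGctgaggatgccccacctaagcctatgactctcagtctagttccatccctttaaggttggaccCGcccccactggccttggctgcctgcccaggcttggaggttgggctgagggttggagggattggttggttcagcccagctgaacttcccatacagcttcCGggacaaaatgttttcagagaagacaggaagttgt
Cyp2s1: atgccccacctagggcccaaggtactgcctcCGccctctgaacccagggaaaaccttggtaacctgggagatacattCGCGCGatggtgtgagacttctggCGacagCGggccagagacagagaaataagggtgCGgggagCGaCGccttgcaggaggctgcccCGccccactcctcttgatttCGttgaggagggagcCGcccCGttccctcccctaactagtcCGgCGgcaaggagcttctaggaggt
Cyp1b1: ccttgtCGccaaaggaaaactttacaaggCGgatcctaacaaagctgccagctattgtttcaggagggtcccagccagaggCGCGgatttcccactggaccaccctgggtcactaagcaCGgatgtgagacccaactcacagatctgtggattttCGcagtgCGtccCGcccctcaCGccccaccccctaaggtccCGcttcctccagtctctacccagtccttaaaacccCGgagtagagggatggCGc
Cyp3a11: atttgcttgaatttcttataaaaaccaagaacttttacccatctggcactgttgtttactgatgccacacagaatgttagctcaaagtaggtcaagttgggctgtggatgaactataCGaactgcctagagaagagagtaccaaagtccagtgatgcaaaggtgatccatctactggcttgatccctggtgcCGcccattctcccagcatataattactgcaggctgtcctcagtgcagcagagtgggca

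**Figure D1:**
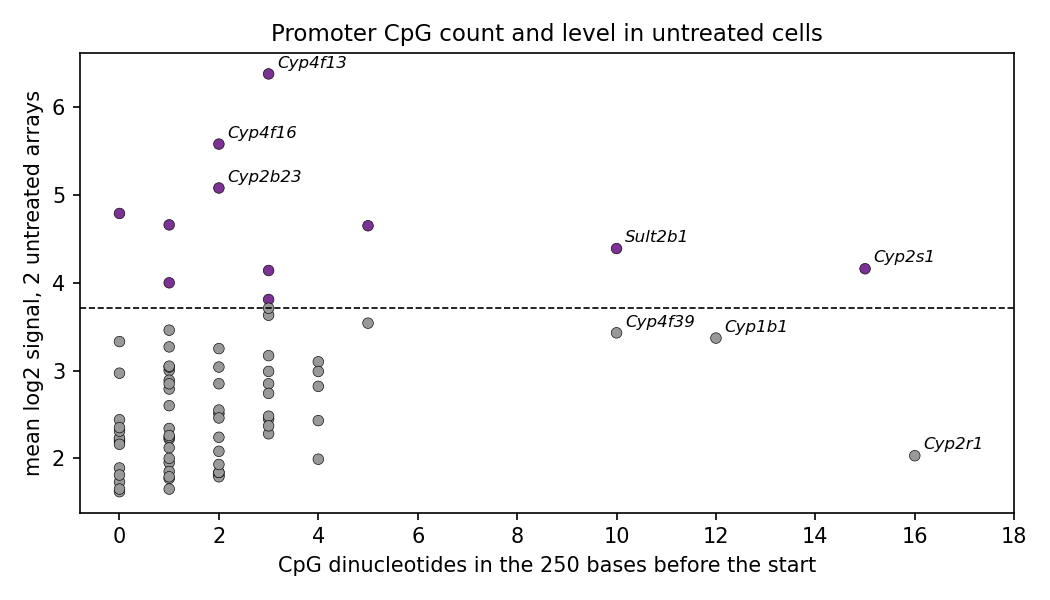
Each point is a gene of the families with a listed promoter: the horizontal axis counts CpG dinucleotides in the 250 bases before the start, the vertical axis gives the mean log2 signal of the 2 untreated arrays, and the dashed line is the background level of 3.71. Of the 5 genes with at least 10 CpG, Cyp2s1 and Sult2b1 lie above the line and Cyp1b1, Cyp4f39 and Cyp2r1 below it.

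Most of the drug-metabolising genes gave no signal above background in the stem cells. The background level was set at 3.71, the 95th percentile over 1027 olfactory receptor genes, which are not expected in these cells, of the mean over the 6 arrays; their median was 2.39. In untreated cells 16 of the 94 genes (17.0%) had a mean above it, against 63.8% of all genes. By family these were 0 of 3 Cyp1, 9 of 45 Cyp2, 0 of 6 Cyp3, 3 of 16 Cyp4, 0 of 8 Ugt and 4 of 16 Sult genes. On all 6 arrays 15 genes were above the level, and 71 were above it on none. The genes nearest the level were Cyp4f14 (3.71, just below when unrounded), Cyp4b1 (3.63) and Cyp2w1 (3.54) below it, and Cyp2t4 (3.81), Cyp2c37 (4.00) and Cyp2d10 (4.14) above it. With the 99th percentile, 4.54, as the level, 8 genes lay above. A bulk array cannot tell fewer cells that express a gene from less RNA per cell.

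**Figure D2:**
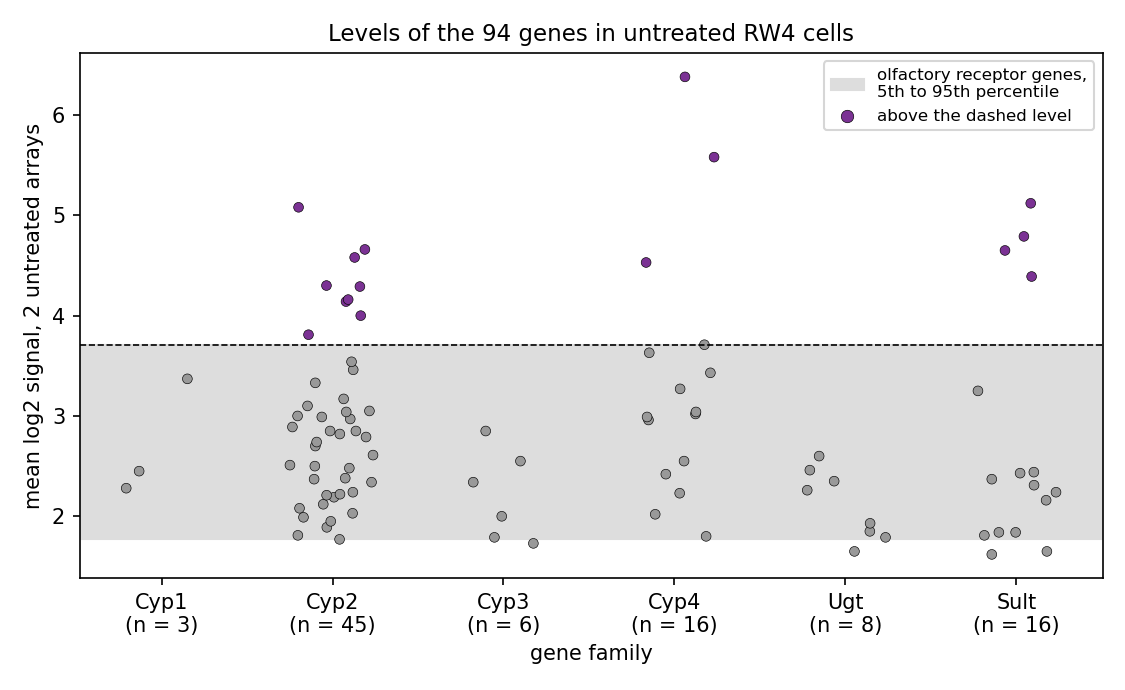
Each point is the mean log2 signal of the 2 untreated arrays for a gene, grouped by family on the horizontal axis, with the grey band spanning the 5th to 95th percentile of the olfactory receptor genes (1.77 to 3.71). The 16 purple points above the dashed level belong to Cyp2, Cyp4 and Sult, and every Cyp1, Cyp3 and Ugt gene lies at or under it.

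Among the Cyp4 genes, the Cyp4f subfamily held the signals above background, with 3 of 9 genes, and the Cyp4a subfamily, the targets of PPARα that hydroxylate the end of fatty acid chains, held none of 5. Cyp4f13, a member of the subfamily that hydroxylates long-chain fatty acids and leukotrienes, read 6.27 and 6.49 in untreated cells, 6.19 and 6.12 with 4OHT, and 6.43 and 5.95 with Shld1. Both 4OHT arrays lay below both untreated arrays, as for 20.4% of all genes, and the Shld1 arrays overlapped the untreated arrays. Cyp4f16, of the same subfamily, read 5.92 and 5.25 untreated, 5.50 and 5.53 with 4OHT, and 5.55 and 5.18 with Shld1. The untreated arrays lay on either side of both 4OHT arrays and overlapped the Shld1 arrays. The pseudogene Cyp4f41-ps read 4.48 and 4.57 untreated, 4.61 and 4.47 with 4OHT, and 4.69 and 4.75 with Shld1. Its Shld1 arrays were above both untreated arrays, as for 15.2% of all genes. The Cyp4f genes are close in sequence, so signal of a coding gene and of the pseudogene is not surely separate. Cyp4a10, read below background on every array, gave 2.48 and 2.62 untreated, 2.44 and 2.21 with 4OHT, and 1.85 and 2.66 with Shld1.

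The Cyp2d subfamily had 4 of 10 genes above background. Cyp2d22, often set beside human CYP2D6, read 4.62 and 4.53 untreated, 4.79 and 4.50 with 4OHT, and 4.70 and 4.89 with Shld1. Both Shld1 arrays were above both untreated arrays, as for 15.2% of all genes, and the 4OHT arrays lay on either side of the untreated arrays. Cyp2d40 read 4.74 and 4.58 untreated, 4.72 and 4.74 with 4OHT, and 4.49 and 4.56 with Shld1. Its Shld1 arrays were below both untreated arrays, as for 17.3% of all genes. Cyp2d10 read 4.11 and 4.17 untreated, 4.43 and 4.09 with 4OHT, and 4.05 and 4.21 with Shld1. The pseudogene Cyp2d37-ps read 4.23 and 4.38 untreated, 4.61 and 4.24 with 4OHT, and 4.23 and 4.53 with Shld1. Many mouse Cyp2d genes are close copies in a cluster, so which copy gave a signal is not always certain. Cyp2d26 passed the level on 1 array only, at 3.79 on untreated replicate 1.

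Other Cyp2 subfamilies had at most 1 gene above background. Cyp2b23 read 5.10 and 5.07 untreated, 5.35 and 5.24 with 4OHT, and 4.65 and 5.25 with Shld1. Its 4OHT arrays were above both untreated arrays, as for 17.3% of all genes. Cyp2b23 is a relative of Cyp2b10, the target of the constitutive androstane receptor, and was the only 1 of 5 Cyp2b genes above the level. Cyp2u1, which hydroxylates long-chain fatty acids, read 4.22 and 4.37 untreated, 4.27 and 4.15 with 4OHT, and 4.03 and 4.08 with Shld1. Cyp2s1, an enzyme found mainly outside the liver, read 4.24 and 4.07 untreated, 4.22 and 3.96 with 4OHT, and 3.93 and 4.01 with Shld1. For Cyp2u1 and Cyp2s1 the Shld1 arrays were below both untreated arrays, as for 17.3% of all genes, and the 4OHT arrays overlapped the untreated arrays. Cyp2c37 read 4.15 and 3.85 untreated, 4.33 and 3.96 with 4OHT, and 4.13 and 3.88 with Shld1, and it was the only 1 of 13 genes of the Cyp2c cluster above the level. Cyp2t4 read 3.70 and 3.92 untreated, 3.67 and 3.58 with 4OHT, and 3.61 and 3.67 with Shld1. The arrays of either ligand lay below both untreated arrays, as for 20.4% of all genes with 4OHT and 17.3% with Shld1. For Cyp2t4 untreated replicate 2 was the sole array over the level, so its place among the 16 rests on that array. None of 6 Cyp2j genes, epoxygenases of arachidonic acid, passed the level. Cyp2e1, the P450 that oxidises ethanol, read 2.53 and 2.49 untreated, 2.35 and 2.50 with 4OHT, and 2.24 and 2.18 with Shld1.

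Of the sulfotransferases, 4 of 16 were above background. Sult1a1, whose human counterpart conjugates phenols and 4OHT, read 4.54 and 5.04 untreated, 4.08 and 4.71 with 4OHT, and 4.40 and 4.56 with Shld1. The replicates of the untreated and 4OHT groups were spread widely, and all 3 groups overlapped. Sult4a1, a brain enzyme with no well-defined substrate, read 5.01 and 5.23 untreated, 5.25 and 4.75 with 4OHT, and 5.32 and 4.50 with Shld1. Sult2b1, which sulfates cholesterol, read 4.11 and 4.66 untreated, 4.43 and 4.20 with 4OHT, and 4.44 on both Shld1 arrays. Sult5a1 read 4.53 and 4.77 untreated, 5.0 and 4.74 with 4OHT, and 4.49 and 4.50 with Shld1. For Sult5a1 both Shld1 arrays were below both untreated arrays, as for 17.3% of all genes, and both 4OHT arrays were above both Shld1 arrays. Among the 16 genes above background, the 4OHT arrays were above the Shld1 arrays for 3 and below them for 2. Over all genes the shares were 14.9% and 15.6%. Sult1e1, the oestrogen sulfotransferase, stayed under the level at 1.67 and 1.62 untreated, 1.76 and 1.66 with 4OHT, and 1.70 and 1.59 with Shld1.

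**Figure D3:**
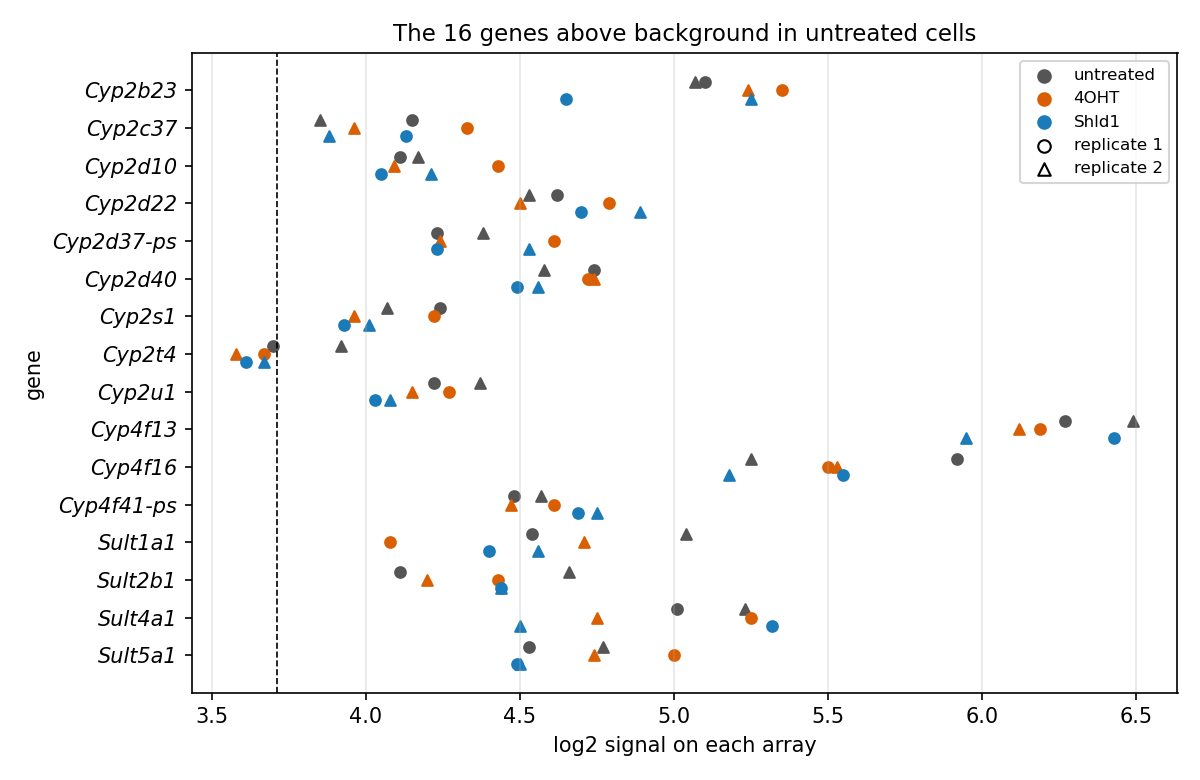
Each row is a gene above the background level (dashed line, 3.71) in untreated cells, and each mark is the log2 signal of an array, coloured by group and shaped by replicate. In rows such as Sult1a1 and Sult4a1 the 3 groups overlap, in others such as Cyp2u1 and Cyp4f13 a pair of groups is apart, and for Cyp2t4 a single untreated array lies right of the line.

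Receptor targets that serve as indicators of exposure in the liver lay in the background. The Cyp1 genes are induced by the aryl hydrocarbon receptor. Cyp1a1 read 2.17 and 2.39 untreated, 2.63 and 2.56 with 4OHT, and 2.67 and 2.38 with Shld1. Cyp1a2 read 2.41 and 2.48 untreated, 2.65 and 2.82 with 4OHT, and 2.74 and 2.59 with Shld1. Both 4OHT arrays exceeded both untreated arrays for either gene, as for 17.3% of all genes, at levels under 3.71 throughout. Both Shld1 arrays did so for Cyp1a2, as for 15.2% of all genes, and overlapped the untreated arrays for Cyp1a1. Cyp1b1 read 3.22 and 3.51 untreated, 3.21 and 3.51 with 4OHT, and 3.30 and 3.23 with Shld1. Cyp3a11, the main liver target of the pregnane X receptor, read 1.89 and 1.70 untreated, 1.78 and 2.05 with 4OHT, and 1.80 and 2.00 with Shld1. Cyp3a13, expressed chiefly in intestine, read 2.05 and 1.95 untreated, 1.81 and 2.04 with 4OHT, and 1.98 and 1.90 with Shld1. Neither Cyp3a gene separated the groups. Ugt2b34, of the family that glucuronidates steroids, read 2.34 and 2.37 untreated, 2.24 and 2.30 with 4OHT, and 2.14 and 2.52 with Shld1. Cyp3a25 and Cyp4f15 passed the level only on Shld1 replicate 2, at 3.89 and 3.98.

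The first comparison set 4OHT against untreated cells. With limma and Benjamini-Hochberg adjustment over all 19938 genes, 0 of the 94 genes and 0% of all genes had an adjusted p under 0.05. An exact permutation test of 2 against 2 arrays cannot fall below 0.333. At an unadjusted p under 0.05, 2 of the 94 were higher (2.57% of all genes) and 2 lower (2.42%). Both 4OHT arrays were above both untreated arrays for 11 of the 94 (11.7%, against 17.3% of all genes) and below them for 21 (22.3%, against 20.4%). The median log2 difference was -0.03 over the 94 and -0.01 over all genes. The 95% interval lay within 2-fold in both directions for 91 of 94 genes (98.8% of all genes), and the exceptions were Cyp2a12, Cyp2a22 and Cyp2d26. All 16 genes above background were among the 91, with differences from -0.39 to 0.22, and since the untreated arrays chose these 16 the range is a description. The other 75 were below background, where an interval of signals does not bound a change in RNA. The same limit holds for such counts in the comparisons that follow.

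The 3 genes with the largest positive and the 3 with the largest negative statistic in this comparison were all below background on every array. Cyp4a14, a target of PPARα, read 2.77 and 3.15 untreated and 3.43 and 3.47 with 4OHT, a log2 difference of 0.49 (SE 0.16, 95% interval 0.13 to 0.85; limma adjusted p = 0.96). Cyp2c23, an epoxygenase of arachidonic acid in the kidney, read 2.37 and 2.38 untreated and 2.77 and 2.70 with 4OHT, a difference of 0.36 (SE 0.14, 0.05 to 0.66). Cyp4f37 read 2.21 and 2.25 untreated and 2.67 and 2.40 with 4OHT, a difference of 0.31 (SE 0.15, -0.03 to 0.64). In these 3 genes both 4OHT arrays were higher than both untreated arrays. Cyp2a12, which hydroxylates bile acids, read 3.08 and 2.91 untreated and 2.16 and 2.47 with 4OHT, a difference of -0.68 (SE 0.16, -1.05 to -0.32). Cyp2a22, of the same subfamily, read 3.04 and 3.30 untreated and 2.58 and 2.16 with 4OHT, a difference of -0.80 (SE 0.25, -1.37 to -0.23). Sult2a3, of the hydroxysteroid sulfotransferases, read 2.51 and 2.38 untreated and 2.19 and 2.11 with 4OHT, a difference of -0.29 (SE 0.14, -0.61 to 0.02). Both 4OHT arrays were lower in these 3, and the limma adjusted p was 0.96 for each of the 6. Cyp4a14 went to 0.30 without untreated replicate 1, and Cyp4f37 to 0.17 without 4OHT replicate 1.

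Cyp2d22 and Sult1a1, relatives of human genes that act on tamoxifen or 4OHT, were read in the same fit. So were the receptor targets Cyp1a1 and Cyp1a2, with Cyp4f13 and Cyp4f16 beside them. Whether the mouse enzymes handle 4OHT was not tested. The difference was 0.32 for Cyp1a1 (SE 0.16, 95% interval -0.04 to 0.67) and 0.29 for Cyp1a2 (SE 0.15, -0.03 to 0.62). It was 0.07 for Cyp2d22 (SE 0.16, -0.29 to 0.42) and -0.39 for Sult1a1 (SE 0.23, -0.90 to 0.12). It was -0.23 for Cyp4f13 (SE 0.18, -0.63 to 0.18) and -0.07 for Cyp4f16 (SE 0.22, -0.56 to 0.42). All 6 intervals include 0, and none reaches a 2-fold change. Several of these values rest on single arrays. Sult1a1 ran from -0.70 without 4OHT replicate 2 and -0.64 without untreated replicate 1 to -0.14 without untreated replicate 2 and -0.08 without 4OHT replicate 1. Cyp4f16 ran from -0.41 without untreated replicate 2 to 0.27 without untreated replicate 1. Cyp2d22 ran from -0.08 without 4OHT replicate 1 to 0.21 without 4OHT replicate 2, and with an untreated array left out it was 0.02 or 0.11. Cyp4f13 went to -0.12 without untreated replicate 2, and Cyp1a1 to 0.21 without untreated replicate 1.

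The second comparison set Shld1 against the same untreated arrays, so it is not independent of the first. Again 0 of the 94 and 0% of all genes passed limma's adjusted p of 0.05. At an unadjusted p under 0.05, 3 of the 94 were higher (2.41% of all genes) and 1 lower (1.94%). The count of 94 genes past this threshold was not stable and changed when either Shld1 array was left out. Both Shld1 arrays were above both untreated arrays for 19 of the 94 (20.2%, against 15.2% of all genes) and below them for 12 (12.8%, against 17.3%). The median difference was 0.04 over the 94 and 0 over all genes. The 95% interval lay within 2-fold for 87 of 94 (98.7% of all genes), including all 16 genes above background, whose differences ran from -0.30 to 0.22.

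The 3 genes with the largest positive and the 3 with the largest negative statistic were again below background on every array. Cyp3a44, of the Cyp3a cluster, read 2.52 and 2.58 untreated and 2.96 and 3.10 with Shld1, a difference of 0.49 (SE 0.16, 95% interval 0.12 to 0.85; limma adjusted p = 0.999). Cyp3a57, of the same cluster, read 1.65 and 1.81 untreated and 1.93 and 2.59 with Shld1, a difference of 0.53 (SE 0.22, 0.04 to 1.02). Ugt2b36 read 1.94 and 1.36 untreated and 2.15 and 2.26 with Shld1, a difference of 0.55 (SE 0.20, 0.10 to 1.01). The Shld1 arrays were above the untreated arrays for these 3 genes. Cyp2d11 read 2.93 and 3.16 untreated and 2.41 and 2.10 with Shld1, a difference of -0.79 (SE 0.17, -1.17 to -0.42). Cyp2e1 had a difference of -0.30 (SE 0.14, -0.62 to 0.01), with both Shld1 arrays under both untreated arrays. Cyp2a22 read 2.29 and 3.10 with Shld1, a difference of -0.47 (SE 0.25, -1.04 to 0.10), and the groups overlapped. The limma adjusted p was 0.999 for each of the 6. Ugt2b36 went to 0.26 without untreated replicate 2, its low array, and to 0.84 without untreated replicate 1. Cyp3a57 went to 0.20 without Shld1 replicate 2 and to 0.86 without Shld1 replicate 1. Cyp2a22 went to -0.06 without Shld1 replicate 1 and to -0.88 without Shld1 replicate 2.

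Cyp2d22, Sult1a1, Cyp1a1 and Cyp1a2 were read with Shld1 too, again with Cyp4f13 and Cyp4f16 beside them. The Shld1 difference was 0.25 for Cyp1a1 (SE 0.16) and 0.22 for Cyp1a2 (SE 0.15). It was 0.22 for Cyp2d22 (SE 0.16, 95% interval -0.13 to 0.57) and -0.30 for Sult1a1 (SE 0.23, -0.82 to 0.21). It was -0.19 for Cyp4f13 (SE 0.18, -0.59 to 0.21) and -0.22 for Cyp4f16 (SE 0.22). Here too single arrays moved the values. Sult1a1 went to -0.05 without untreated replicate 2 and to -0.55 without untreated replicate 1. Cyp4f16 went to -0.56 without untreated replicate 2 and to 0.12 without untreated replicate 1, and leaving out a Shld1 array gave -0.41 or -0.03. Cyp4f13 went to -0.43 without Shld1 replicate 1 and to 0.05 without Shld1 replicate 2, and leaving out an untreated array gave -0.30 or -0.08. Cyp1a1 went to 0.10 without Shld1 replicate 1, 0.39 without Shld1 replicate 2 and 0.14 without untreated replicate 1, and Cyp2d22 to 0.13 without Shld1 replicate 2.

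The ligands were also set against each other at their shared dose of 1 µM, a comparison that uses arrays of both others. 0 of the 94 and 0% of all genes passed limma's adjusted p of 0.05. At an unadjusted p under 0.05, 3 of the 94 were higher with 4OHT (2.5% of all genes) and 6 lower (3.1%). The count of genes past this threshold was not stable and changed when Shld1 replicate 1 or 4OHT replicate 1 was left out. Both 4OHT arrays were above both Shld1 arrays for 9 of the 94 (9.57%, against 14.9% of all genes) and below them for 21 (22.3%, against 15.6%). The median difference was -0.06 over the 94 and 0 over all genes, and the 95% interval lay within 2-fold for 90 of 94 (98.5% of all genes).

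Of the 3 genes with the largest positive and the 3 with the largest negative statistic here, only Sult5a1 was read above background, with a difference of 0.38 (SE 0.16, 95% interval 0.03 to 0.73; limma adjusted p = 0.871). Cyp2d11 read 2.65 and 2.89 with 4OHT, above its Shld1 arrays, a difference of 0.52 (SE 0.17, 0.14 to 0.89). Cyp2c23 read 2.34 on both Shld1 arrays, below its 4OHT arrays, a difference of 0.40 (SE 0.14, 0.09 to 0.70). Both genes had also been among the 6 of a comparison with untreated cells, with which they share arrays. Cyp3a16 read 2.22 and 1.99 with 4OHT and 2.62 and 2.75 with Shld1, a difference of -0.58 (SE 0.17, -0.96 to -0.20). Cyp2j9 read 2.67 and 2.92 with 4OHT and 3.31 and 3.28 with Shld1, a difference of -0.50 (SE 0.15, -0.84 to -0.16). Ugt2b38 read 2.19 and 2.49 with 4OHT and 2.71 and 3.29 with Shld1, a difference of -0.66 (SE 0.20, -1.11 to -0.20). The 4OHT arrays were lower for these 3, and the limma adjusted p was 0.871 for each of the 6. Sult5a1 went to 0.25 without 4OHT replicate 1, and Ugt2b38 to -0.37 without Shld1 replicate 2.

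**Figure D4:**
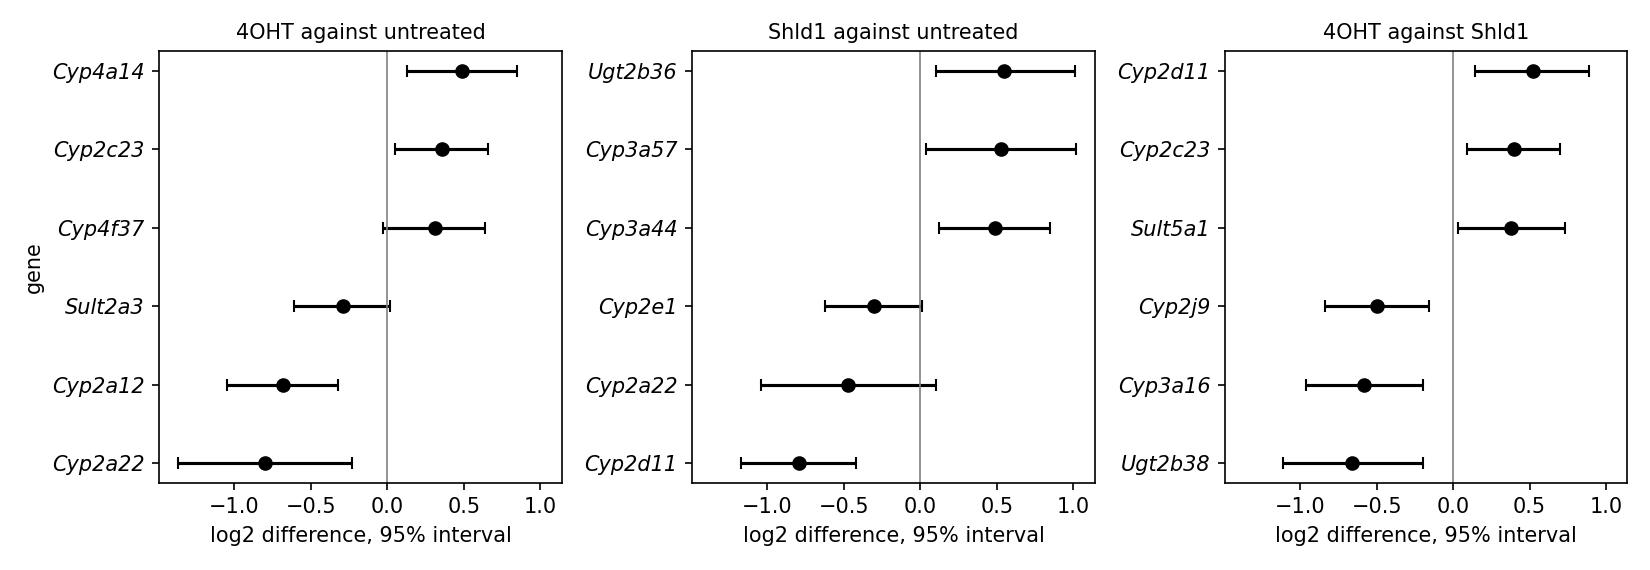
For each comparison, the 3 genes with the largest positive and the 3 with the largest negative moderated statistic are shown: points are log2 differences and bars are 95% intervals from limma. Differences run from -0.80 (Cyp2a22 with 4OHT) to 0.55 (Ugt2b36 with Shld1), and none has an adjusted p under 0.05.

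The highest value of a dim gene fell on the same array more often than on others. Of the 77 genes of the families with a mean over all arrays at or below background, 30 (39.0%) had their highest value on Shld1 replicate 2, as did 38.7% of the 7097 such genes of the whole array. On Shld1 replicate 1 the share was 15.6%, against 7.12% of all dim genes, and on 4OHT replicate 1 it was 10.4%, against 23.0%. Shld1 replicate 2 had the narrowest range of signals, with an SD of 2.24 over all probe sets against 2.29 to 2.35 on the other arrays, and the highest median over the olfactory receptor genes, 2.57 against 2.31 to 2.40. The part of this array in the Shld1 differences of the dim genes was not tested beyond leaving it out.

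**Figure D5:**
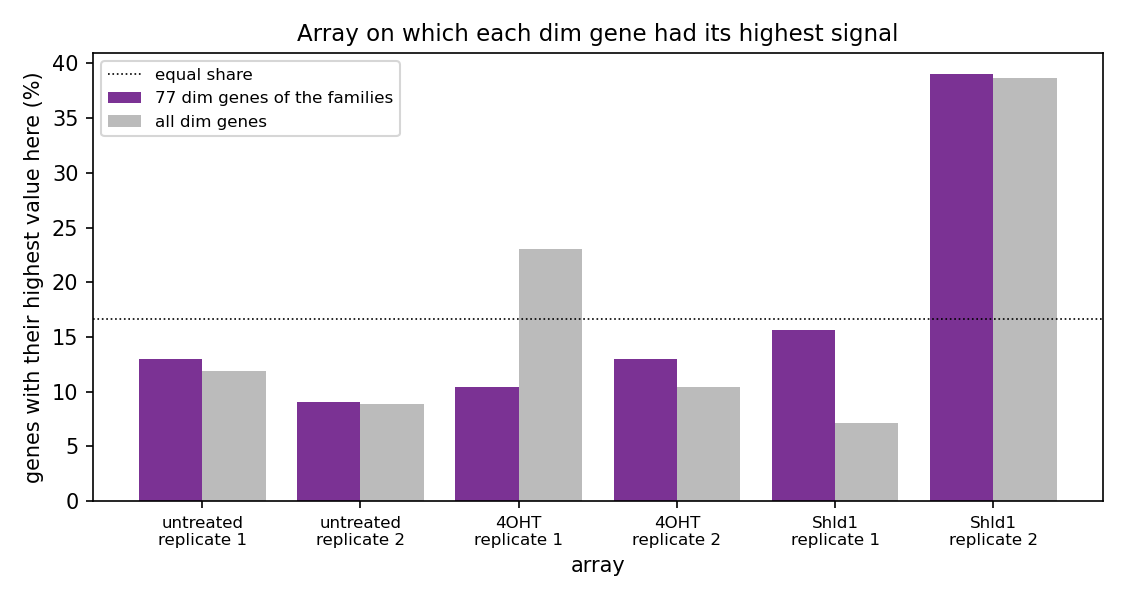
Bars give the percentage of dim genes (mean over the 6 arrays at or below 3.71) whose highest log2 signal was on the array named below, for the 77 genes of the families and for all 7097 dim genes, and the dotted line marks an equal share. Shld1 replicate 2 holds 39.0% and 38.7%.

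Genes that regulate or supply these enzymes were read in 5 lists, and no gene of these had an adjusted p under 0.05 in limma in any comparison. Of the regulators, 10 of 17 measured were above background in untreated cells, against 63.8% of all genes. The aryl hydrocarbon receptor gene Ahr averaged 5.37, its partner Arnt 7.74 and its target Tiparp 6.71, while the pregnane X receptor gene Nr1i2 (3.28), the constitutive androstane receptor gene Nr1i3 (3.61) and Ppara (3.48) were below the level. At an unadjusted p under 0.05, 2 of the 17 regulators were higher with 4OHT (2.57% of all genes) and 1 lower (2.42%), and 0 passed with Shld1 (2.41% and 1.94%). Cebpa, a liver and fat cell factor, read 4.02 ± 0.12 untreated and 4.42 ± 0.13 with 4OHT (SD, n = 2). Cebpb, its relative, read 6.09 ± 0.16 untreated and 5.68 ± 0.13 with 4OHT (SD, n = 2). Rxrg, a retinoid X receptor gene below background, read 2.57 ± 0.01 untreated and 2.96 ± 0.02 with 4OHT (SD, n = 2). Cebpa, Cebpb and Rxrg were named because they had the largest treatment statistics of the list. Their untreated and 4OHT groups did not overlap, which that choice favours. Over all genes this was so for 17.3% in the higher and 20.4% in the lower direction.

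Suppliers of electrons and of co-substrates were above background in 12 of 13, with 0 past an unadjusted p of 0.05 in either treatment comparison. The share of all genes above background, 63.8%, stands beside this count and the others of this paragraph. Cyb5a and Cyb5b, the cytochromes b5 that pass electrons to P450 enzymes, averaged 8.08 and 7.09 in untreated cells, and Ugdh, which makes UDP-glucuronic acid, averaged 6.34. Papss1, a synthase of the sulfate donor PAPS, averaged 4.57, and Papss2, the other, was below background at 2.60. Por, the P450 reductase gene, was not measured singly. Other drug-modifying enzymes were above background in 6 of 18, among them the epoxide hydrolases Ephx1 (5.93) and Ephx2 (5.82). Drug transporters were above it in 10 of 17, among them the exporters Abcg2 (6.38) and Abcc4 (7.39), with 1 of 17 higher with Shld1 at an unadjusted p under 0.05 (2.41% of all genes). P450 genes of endogenous substrates were above it in 5 of 18, among them Cyp51 of sterol synthesis (6.64), with 1 of 18 higher at that threshold with 4OHT (2.57% of all genes) and 1 with Shld1 (2.41%).

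The label of an embryonic stem cell line was set against marker genes. All 10 pluripotency markers were above background, against 63.8% of all genes, with a mean of 9.84 to 10.1 on the 6 arrays. Of 11 hepatocyte markers, with a mean of 3.28 to 3.43, 3 were above background: Apoa1 (4.83), Apoa2 (4.83) and Pck1 (3.82). The others, among them Alb (2.69), Afp (2.52) and Ttr (2.66), were below it. Enterocyte markers were above it in 2 of 7 (mean 3.08 to 3.18) and fibroblast markers in 4 of 8 (mean 3.66 to 3.87). Markers of extraembryonic endoderm were above it in 7 of 7, with a mean of 5.62 to 5.74 across the arrays. Their part in the signals of the drug-metabolising genes was not tested.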

How the data were processed

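The values are log2 signals per probe set, deposited by the authors in a series value table; limma 3.14 appears in the submitters' processing notes with no step attached, and how the arrays were normalized is not stated in any source used here. Of 35556 probe sets, 21789 carried 1 gene symbol in the platform annotation, 1621 several and 12146 none. For each of the resulting 19938 genes the probe set with the brightest mean over all arrays was kept.

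A mean per group was fitted over all 6 arrays with limma 3.58.1 in R 4.3.3 (lmFit and eBayes, 3 residual and 6.77 prior degrees of freedom), two-sided, with Benjamini-Hochberg adjustment over all genes. The procedure was tested on simulated data in which every gene had the same spread. That setting differs from these data, so it does not give the power to detect differences here. Groups and replicate numbers came from the labels. Genes and lists were chosen with earlier results of these data known. Members were named if above background in untreated cells, if among the 3 largest positive or negative statistics of a comparison, or if on a reference list (Cyp1a1, Cyp1a2, Cyp1b1, Cyp2d22, Cyp2e1, Cyp3a11, Cyp3a13, Cyp4a10, Cyp4a14, Ugt1a1, Ugt2b34, Sult1a1, Sult1e1 and Sult2b1); a few genes near the background level, Cyp2d26, Cyp3a25, Cyp4f15 and the CpG-rich Cyp4f39 and Cyp2r1 were added after their values were seen. In the lists around them, genes with the largest statistics and others of known role were named, the latter also after their values were seen.

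Alternatives were quantile normalization, centring on the 75th percentile, an intensity trend, array weights, a filter on dim genes, the mean of a gene's probe sets, only the groups compared, a replicate block and leaving out each array. Leaving out 4OHT replicate 1 and Shld1 replicate 2, the arrays of narrowest range, together was added after seeing the data. All arrays were used.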

Additional observations from a re-analysis of the deposited data

How the results depend on the processing

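No gene of the families reached an adjusted p under 0.05 in limma under any alternative. The 16 genes above background became 8 at the 99th percentile of the olfactory receptor genes. Leaving out the dimmest 40% of genes kept 15 of the 94, and the median difference moved from 0.041 to -0.136 for Shld1 against untreated and from -0.060 to 0.118 for 4OHT against Shld1; fewer genes enter these medians. Leaving out 1 array gave -0.41 to 0.27 for Cyp4f16 and -0.08 to 0.21 for Cyp2d22 in 4OHT against untreated. In Shld1 against untreated it gave -0.56 to 0.12 for Cyp4f16 and -0.43 to 0.05 for Cyp4f13. Without both arrays of narrower range Cyp2d22 read -0.08 with 4OHT and Cyp4f13 0.05 with Shld1; the cause was not tested. With the replicate block 0 genes were called. Each group holds 1 array of each replicate number, so this block cannot change a difference between groups. The medians of -0.033, 0.041 and -0.060 were therefore fixed by the design and do not test the block. Same-numbered arrays showed no shared deviation in the deposited values (r = 0.05, -0.08 and -0.19 between the groups). Whether the numbers pair the samples cannot be decided from this, because the normalization is unknown and may have removed a shared shift.

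The naming rule takes 93 differences of 38 genes. Over all alternatives these gave 1347 values, of which 86 had the opposite sign, 77 of them where arrays were left out. The reversals affected 43 of the 93 differences, and 82 of the 86 values belonged to differences smaller than their SE. Many of the 1347 values could not turn. The intensity trend, array weights, filter on dim genes and mean of probe sets left the printed differences as they were. The replicate block, restriction to the groups compared and omission of an array of the group not compared did so too. The share of 86 in 1347 therefore understates how readily these differences turn. After these reversals were seen, the printed differences were cut to those with the largest statistics and 6 further genes in the treatment comparisons, so the reversal rate of the printed ones, 4 of 30, understates that of the whole set. With 2 arrays a group, small differences of dim genes are not resolved.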
